A study of Homo sapiens with 6 samples.

Results

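Fibronectin (FN1), its crosslinker transglutaminase 2 (TGM2), 5 secreted proteins that sit on the fibronectin network or modulate it (TNC, THBS1, SPARC, TGFBI and FBLN1) and 3 laminin chains that are not part of laminin-332 (LAMA5, LAMB1 and LAMC1) were followed in SCC-9 cells. The rows were found by gene symbol, and all 10 genes were among the 25349 genes of the count table. They were chosen by symbol at a time when differences between the groups in these same libraries were known. The differences of the 10 genes are therefore given as a description, and their p-values are not printed. Calls of these genes in the fit across all genes are counted below but not read as support. SCC-9 is a squamous carcinoma line established from a tumour of the human tongue, so the model is 1 line. Its cells received 10 nM siRNA on day 0 and again on day 2, either targeting exon 7 of the Ki67 gene MKI67 (siE7) or nonspecific (siNC), and RNA was taken on day 4. All cells grew with fetal bovine serum and hydrocortisone, and both groups received Lipofectamine. The methods describe 3 siRNAs to exon 7 and do not say which of them these 3 libraries received. The study asked which genes depend on the Ki67 isoform that includes exon 7.

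Fibronectin is a large secreted glycoprotein that cells stretch into fibrils through integrins at their surface, and many other matrix proteins are laid down on those fibrils. Matricellular proteins such as thrombospondin 1, tenascin C and SPARC are secreted into the matrix but mainly tune how cells adhere to it instead of carrying load. Laminins are trimers of an alpha, a beta and a gamma chain that form the sheet of the basement membrane, and squamous carcinoma cells commonly make several of these proteins themselves.

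The libraries held 25608192 to 29550264 counts on genes, and each was counted as 1 replicate, with 3 per group. The labels do not say whether replicates were separate cultures, so the spread between them may be technical. MKI67 itself stood at 1029 to 1077 CPM, counts scaled to a common library size, with siNC and at 108 to 124 CPM with siE7. The scaling used the trimmed mean of M-values (TMM). All 10 squamous epithelial markers looked up (among them KRT5, KRT14 and TP63) were above 1 CPM, with a sum of 25050 to 26556 CPM with siNC and 22730 to 29142 CPM with siE7. Most of these markers, but not all, were lower with siE7. Of the 10, CDH1 (E-cadherin) was called (log2 fold change -1.03). EPCAM had -0.77, SFN -0.61, KRT5 -0.60, DSP -0.38, TP63 -0.33, PKP1 -0.26 and KRT6A -0.24. The higher ones were KRT17 (0.70) and KRT14 (0.31), and KRT14 makes up the largest part of the sum. The part of these markers in the results below was not tested. The 10 fibroblast markers summed to 25.4 to 27.8 CPM with siNC and 25.3 to 32.8 CPM with siE7, and 3 of them (COL1A1, COL1A2 and ACTA2) were above 1 CPM, while the other fibroblast markers, PDGFRA, PDGFRB, LUM and THY1 among them, reached at most 0.621 CPM in any library. The 6 endothelial markers summed to at most 0.568 CPM, and of the 6 leukocyte markers only CD14 and ITGAM had reads. Replicate 1 of siE7 stood apart from the other siE7 libraries. Its counts differed from theirs by chi-square values of 61.1 and 72.7 per degree of freedom, against 5.54 to 6.22 for the other pairs within a group. The differences of the 10 genes are therefore also given without it. For other named matrix genes they are given where leaving it out changed a call, and for some genes that kept their call. Among the genes that kept their call, the difference grew for some and shrank for others. The share of mitochondrial transcripts lay between 2.22% and 2.75% in all libraries.

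Of the 10 genes, 9 were matched to a promoter in the RefSeq table (GRCh38.p14), all but TGM2. The promoters of FN1, THBS1 and SPARC are printed because these genes showed a decrease beyond 1 on the log2 scale. Each runs from 250 bases before the transcription start to 50 bases after it, 5′ to 3′ on the strand of the gene. Capitals mark matches on either strand to TATAAA (the TATA box), CCAAT (the site of the factor NF-Y), GGGCGG (the GC box bound by SP1), TGACGTCA (cAMP response element), TGANTCA (AP-1) or GGAATG (TEAD factors), and overlapping matches run together.
FN1, chr2:215436019-215436318, minus strand: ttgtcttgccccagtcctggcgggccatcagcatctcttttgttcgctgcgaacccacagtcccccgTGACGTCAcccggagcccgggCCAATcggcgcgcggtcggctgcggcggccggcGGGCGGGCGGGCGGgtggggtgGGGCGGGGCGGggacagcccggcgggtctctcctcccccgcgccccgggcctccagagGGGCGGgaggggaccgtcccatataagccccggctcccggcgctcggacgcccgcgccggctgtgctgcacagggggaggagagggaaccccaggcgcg
THBS1, chr15:39580829-39581128, plus strand: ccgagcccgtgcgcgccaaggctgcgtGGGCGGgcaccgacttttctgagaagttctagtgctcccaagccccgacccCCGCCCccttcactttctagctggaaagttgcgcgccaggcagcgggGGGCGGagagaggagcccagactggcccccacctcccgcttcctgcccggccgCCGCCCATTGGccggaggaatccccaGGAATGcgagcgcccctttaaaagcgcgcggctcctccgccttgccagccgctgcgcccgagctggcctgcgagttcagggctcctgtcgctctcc
SPARC, chr5:151686866-151687165, minus strand: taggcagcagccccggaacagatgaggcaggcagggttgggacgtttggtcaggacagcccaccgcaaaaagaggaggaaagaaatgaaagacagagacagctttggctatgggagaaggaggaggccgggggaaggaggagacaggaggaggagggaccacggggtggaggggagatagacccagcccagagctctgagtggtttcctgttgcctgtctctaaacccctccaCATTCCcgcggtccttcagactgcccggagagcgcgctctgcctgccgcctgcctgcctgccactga

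The letters shared by most of the 9 promoters were those of the GC box, found in 8 of them and in 45.0% of 35116 promoters of the same length. SPARC was the 1 promoter without it, and FN1 held 6 matches between bases -129 and -44 from the start. The cAMP response element TGACGTCA was found in FN1 alone of the 9, at bases -183 to -176, and 1.85% of all promoters hold it. FN1 and THBS1 hold CCAAT (34.6% of all promoters), at -162 to -158 and at -66 to -62. GGAATG was found in THBS1 at -46 to -41 and in SPARC at -17 to -12, against 14.0% of all promoters. None of the 9 windows holds TATAAA (11.5% of all promoters) or TGANTCA (7.71%). These are matches of letters and do not show that a factor binds.

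FN1 (ENSG00000115414.21), which encodes fibronectin, lies on the minus strand of chromosome 2 (GRCh38, 215360440 to 215436073). It was the most abundant gene of the siNC libraries by counts, with 18224, 18112 and 19221 CPM in replicates 1, 2 and 3. With siE7 it stood at 9314, 7345 and 6675 CPM and ranked 3. Each siE7 library lay well below each siNC library. The log2 fold change was -1.25 (standard error 0.131, 95% interval -1.54 to -0.97), which leaves 42.0% of the siNC level. FN1 alone took up 1.70% to 1.80% of all counts with siNC and 0.733% to 0.934% with siE7. Without siE7 replicate 1, the highest of its group, the log2 fold change was -1.46. The counts are per gene, so the spliced forms of fibronectin, with or without its extra domains, cannot be told apart. The 10 genes together held 2.05% to 2.17% of the counts with siNC and 0.927% to 1.17% with siE7, and most of these were counts of FN1.

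TGM2 (ENSG00000198959.12), on the minus strand of chromosome 20 (38127385 to 38166578), showed the widest difference of the 10 genes. Transglutaminase 2 joins glutamine and lysine side chains of proteins in the presence of calcium, and fibronectin is one of its substrates and partners at the cell surface. Its level was 190, 205 and 197 CPM with siNC and 22.4, 16.3 and 17.9 CPM with siE7. All 3 siE7 libraries were far below the siNC libraries, and the 3 siNC values lay within a narrow band. The log2 fold change was -3.39 (standard error 0.142), which leaves 9.56% of the siNC level, and it was -3.59 without siE7 replicate 1. By counts TGM2 ranked 956 among all genes with siNC and 6134 with siE7. The exons of TGM2 share 396 bases with RPRD1B on the other strand, which is 4.98% of their length, and it is not stated whether the authors' counting used the strand. These are bulk samples, in which fewer cells with a transcript and less of it per cell cannot be told apart.

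**Figure D1:**
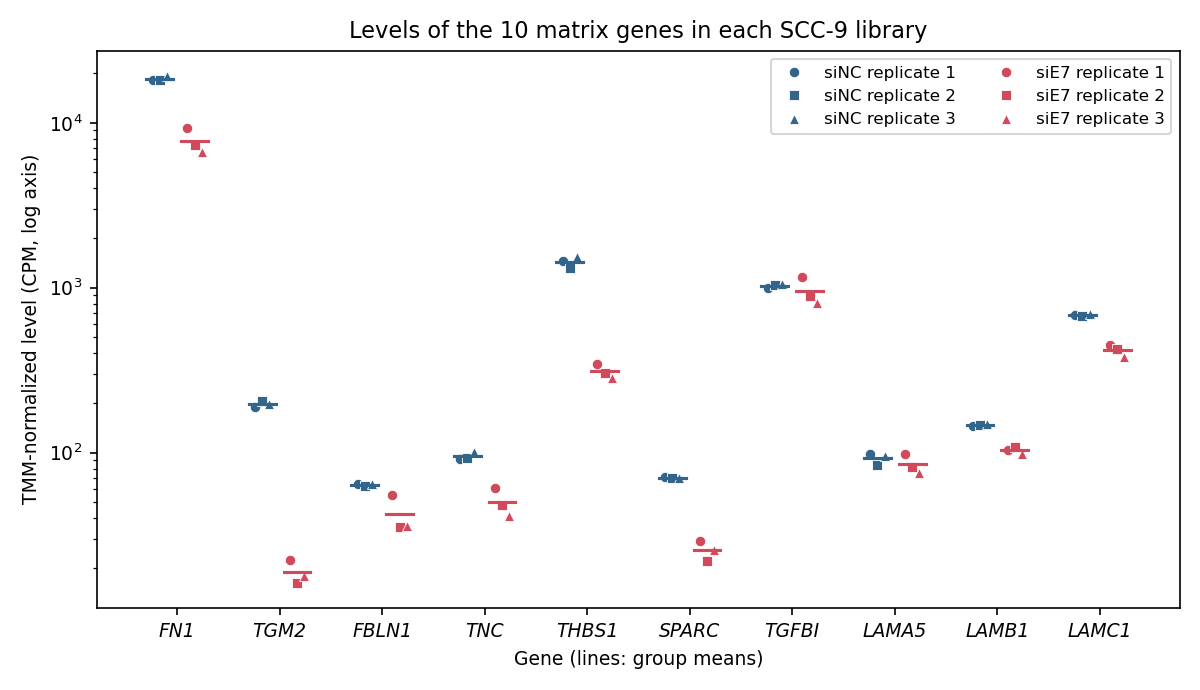
TMM-normalized level (CPM, log axis) of the 10 genes in each library, with siNC in blue, siE7 in red, a symbol for each replicate and a line at the mean of each group. The siE7 points lie below all siNC points for 8 genes and mix with them for TGFBI and LAMA5; siE7 replicate 1 (red circle) is the highest siE7 point for 9 genes.

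Among the matricellular genes, THBS1, SPARC and TNC were lower in every siE7 library than in any siNC library, and TGFBI was not. THBS1 (ENSG00000137801.11; chromosome 15, 39581079 to 39599466, plus strand) encodes thrombospondin 1, which restrains blood vessel growth and can release TGF-beta from its latent form. It stood at 1455, 1314 and 1540 CPM with siNC and at 344, 304 and 285 CPM with siE7, a log2 fold change of -2.21 (standard error 0.119). This leaves 21.7% of the siNC level. Leaving out siE7 replicate 1 gave -2.35. The exons of THBS1 overlap FSIP1 by 448 bases and THBS1-AS1 by 411 bases, both on the other strand.

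SPARC (ENSG00000113140.11; chromosome 5, 151661096 to 151686975, minus strand) encodes a calcium-binding protein that binds collagen and loosens adhesion. Its siNC values, 70.8, 70.0 and 70.6 CPM, were the tightest of the 10 genes, with a coefficient of variation of 0.585%. They rest on 1747, 1748 and 1864 counts, for which counting alone would give a wider spread. The closeness of these values is therefore not read as a trait of the gene. With siE7 the values were 29.2, 22.1 and 25.7 CPM, and the log2 fold change was -1.46 (standard error 0.129). The difference was several times the spread within either group, and it was -1.62 without siE7 replicate 1.

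TNC (ENSG00000041982.16; chromosome 9, 115019575 to 115118207, minus strand) encodes tenascin C, a large protein of remodelling tissue and tumour stroma that weakens adhesion to fibronectin. It was measured at 91.8, 92.2 and 101 CPM with siNC and at 61.0, 48.4 and 41.5 CPM with siE7. The groups did not overlap, and siE7 replicate 1 lay nearest to the siNC libraries. The log2 fold change was -0.92 (standard error 0.144) in all libraries and -1.14 without that replicate, on either side of the threshold of 1.

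TGFBI (ENSG00000120708.17; chromosome 5, 136028988 to 136063818, plus strand) encodes an adhesion protein of the matrix that TGF-beta induces. Its level was 1000.0, 1038 and 1047 CPM with siNC and 1167, 890 and 811 CPM with siE7. The siE7 libraries lay on both sides of the siNC libraries, with replicate 1 above all of them and replicates 2 and 3 below. The log2 fold change of -0.11 had a 95% interval from -0.40 to 0.19. Without siE7 replicate 1 it was -0.34, and scaled by library totals alone it was 0.05, so no direction is given for TGFBI.

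FBLN1 (ENSG00000077942.19; chromosome 22, 45502238 to 45601135, plus strand) encodes fibulin 1, which binds fibronectin and laminins. It stood at 64.7, 62.8 and 64.4 CPM with siNC and at 55.3, 35.4 and 36.1 CPM with siE7. All siE7 values were below the siNC values, but replicate 1 was 1.55 times the mean of the other siE7 libraries, the widest such gap of the 10 genes. The log2 fold change was -0.60 (standard error 0.165) in all libraries and -0.90 without replicate 1.

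LAMA5, LAMB1 and LAMC1 encode the alpha, beta and gamma chains of laminin-511, a trimer of many epithelial basement membranes. LAMC1 (ENSG00000135862.6; chromosome 1, 183023420 to 183145592, plus strand) stood at 681, 672 and 695 CPM with siNC and at 449, 428 and 380 CPM with siE7. LAMB1 (ENSG00000091136.15; chromosome 7, 107923799 to 108003213, minus strand) stood at 145, 146 and 148 CPM with siNC and at 104, 108 and 97.9 CPM with siE7. For both genes the groups did not overlap, and the siNC values were close to each other. The log2 fold change was -0.70 (standard error 0.106) for LAMC1 and -0.50 (standard error 0.103) for LAMB1, short of the threshold of 1, and -0.82 and -0.57 without siE7 replicate 1. LAMA5 (ENSG00000130702.15; chromosome 20, 62307955 to 62367312, minus strand) gave 98.1, 83.6 and 95.8 CPM with siNC and 98.1, 82.2 and 75.7 CPM with siE7. Here the libraries of the groups were intermixed, and the log2 fold change of -0.12 had a 95% interval from -0.40 to 0.16. It was -0.29 without siE7 replicate 1 and 0.05 with library totals, so no direction is given for LAMA5 either.

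Within a library, the ratio of 2 genes does not depend on the scaling. Per kilobase of the canonical transcript, LAMC1 was 10.0, 11.6 and 10.5 times LAMA5 in the siNC libraries and 6.60, 7.50 and 7.24 times LAMA5 in the siE7 libraries. By this measure LAMC1 RNA was thus in wide excess over LAMA5 RNA in every library, and less so in each siE7 library than in any siNC library. The protein chains were not measured, and gamma chains also join other alpha chains than that of LAMA5. LAMC1 was 3.27 to 3.34 times LAMB1 with siNC and 2.77 to 3.07 times LAMB1 with siE7. FN1 was 52.4 to 57.7 times TGM2 with siNC and 221 to 267 times TGM2 with siE7. Every siE7 library thus held more FN1 per TGM2 than any siNC library.

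**Figure D2:**
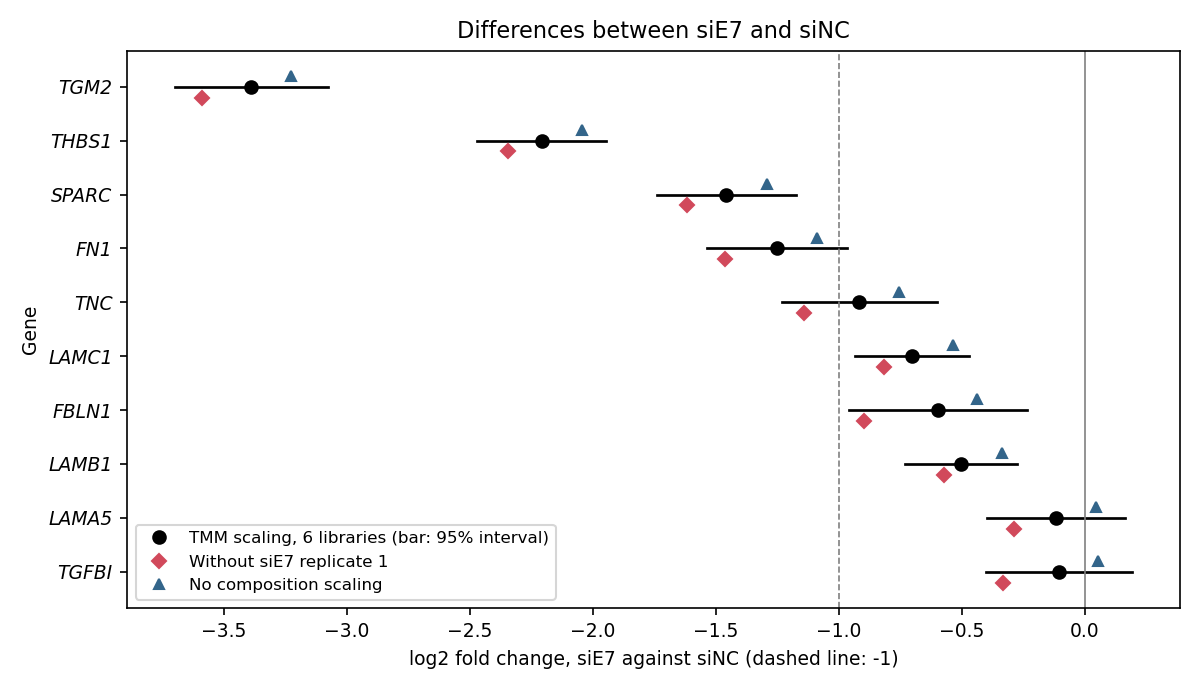
Log2 fold change of each gene between siE7 and siNC, with black points and 95% intervals from all 6 libraries, red diamonds without siE7 replicate 1 and blue triangles after scaling by library totals alone. The order runs from TGM2 at -3.39 to TGFBI at -0.11, and the intervals of TGFBI and LAMA5 cross 0.

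In the fit across all genes, a gene was called if its adjusted p-value was under 0.05 and its log2 fold change beyond 1 in either direction. By this rule 4 of the 10 genes were called (TGM2, THBS1, SPARC and FN1), all lower with siE7, while 12.2% of 14661 tested genes were called and 4.84% were called and lower. Of the called genes 60.4% were higher with siE7. The share was 53.3% with DESeq2, the tool of the study, and 76.2% after scaling by library totals, with 4 of the 10 genes called in each. An adjusted p-value under 0.05 without a condition on the fold change was met by 8 of the 10 genes, all lower, against 16.0% of all genes lower and 18.0% higher, and by 7 when any 1 library other than siE7 replicate 1 was left out, FBLN1 being the one that changed. Those 8 were also the genes whose groups did not overlap, where 22.7% of all genes had every siE7 library below every siNC library. The median log2 fold change was -0.81 for the 10 genes and 0.08 for all tested genes. All 10 genes passed the filter on low counts. Since the genes were chosen with this comparison in view, nothing is read from these shares. Without siE7 replicate 1, TNC was called as well, and over all tested genes 2219 were called in place of 1792. All 10 genes then had an adjusted p-value under 0.05, with smaller standard errors (0.0572 in place of 0.135 for TGFBI). The share of all genes under 0.05 in that setting was not counted, so nothing is read from this either.

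The siE7 libraries differed from each other more than the siNC libraries did. Over the 10 genes the median coefficient of variation was 2.86% with siNC and 15.3% with siE7, beside 8.23% and 18.1% over all tested genes. These medians are not matched for level. Each of the 10 genes had at least 450 counts in every library, while the tested genes include ones with few counts, whose spread from counting is wider. Replicate 1 of siE7 gave the highest siE7 value for 9 of the 10 genes, the exception being LAMB1, while it was the highest for 43.2% of all tested genes. The ratio of replicate 1 to the mean of the other siE7 libraries had a median of 1.28 over the 10 genes and of 0.990 over all tested genes. The knockdown of MKI67 was alike in these libraries, at 112 CPM in replicate 1 and 124 and 108 CPM in the others. The part of this library in the differences between genes was not tested.

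Levels of different genes can be compared only per length, and here CPM were divided by the length of the canonical transcript in kilobases. FN1 led with 2207 ± 72.8 CPM per kb (SD, n = 3) with siNC, followed by TGFBI at 379 ± 9.20, THBS1 at 184 ± 14.7 and LAMC1 at 86.1 ± 1.44 CPM per kb (SD, n = 3). TGM2 came next at 39.7 ± 1.47 and LAMB1 at 25.9 ± 0.262, then FBLN1 at 22.0 ± 0.357 and SPARC at 20.4 ± 0.119, and TNC at 11.2 ± 0.623 and LAMA5 at 8.09 ± 0.682 CPM per kb (SD, n = 3) were the lowest. No neighbours in this order overlapped in their siNC values. That spread does not cover the choice of transcript length, and which transcripts the cells used was not determined, so close places could change. With siE7 the first 4 places were FN1 at 927 ± 164, TGFBI at 352 ± 68.9, LAMC1 at 52.8 ± 4.44 and THBS1 at 39.9 ± 3.87 CPM per kb (SD, n = 3). TGM2 moved from place 5 to the last place at 3.80 ± 0.635 CPM per kb (SD, n = 3), below TNC at 5.92 ± 1.16. LAMA5 at 7.47 ± 1.01 and SPARC at 7.43 ± 1.03 CPM per kb differed by less than their spread with siE7, and the libraries of FBLN1 overlapped those of LAMB1, and those of TNC overlapped SPARC.

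**Figure D3:**
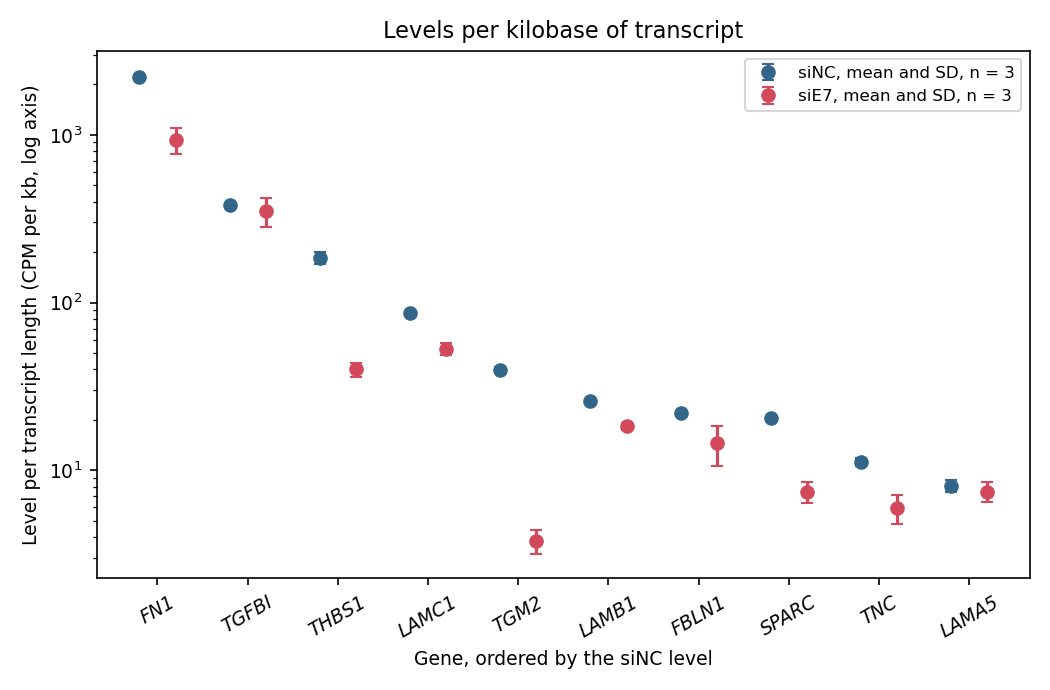
Level per kilobase of canonical transcript (CPM per kb, log axis) as mean and SD of 3 libraries, siNC in blue and siE7 in red, ordered by the siNC level. FN1 is the highest in both groups, at 2207 and 927 CPM per kb, and TGM2 goes from place 5 with siNC to the last place with siE7.

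To place these genes among their partners, 6 lists of other matrix, receptor and TGF-beta genes were written by role. Earlier results of these data were known when the lists were written. The lists held 98 genes in all, of which 66 passed the filter on low counts. Together 18 of the 66 were called by both thresholds, 14 lower and 4 higher, where 4.84% of all tested genes were called lower and 7.38% higher. The median log2 fold change of the 66 genes was -0.51. As for the 10 genes, nothing is read from these shares. Without siE7 replicate 1 the number called was 25, while over all tested genes 2219 were called in place of 1792. P-values below come from the edgeR quasi-likelihood fit and were adjusted by Benjamini-Hochberg over all tested genes.

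Among the other crosslinkers, lysyl oxidases and transglutaminases, 6 genes were tested, of which 1 rose and 2 fell. LOX, the lysyl oxidase that crosslinks collagen and elastin, rose from 3.90 ± 0.804 to 14.8 ± 1.28 CPM (SD, n = 3), with a log2 fold change of 1.93 (adjusted p = 3.6e-05, edgeR, standard error 0.193). Its relatives went the other way. LOXL1 fell from 10.1 ± 1.35 to 3.26 ± 1.07 CPM (SD, n = 3), a log2 fold change of -1.64 (adjusted p = 4.5e-04, edgeR), and LOXL3, whose exons share 20.7% of their length with HTRA2 on the other strand, had -1.17 (adjusted p = 0.0038, edgeR) and was not called without siE7 replicate 2. LOXL2, the most abundant of them, had -0.84 and was not called, and TGM1, the transglutaminase of the cornified envelope, had -0.17 (adjusted p = 0.45, edgeR). Without siE7 replicate 1, LOXL2 was called (-1.05) and TGM1 had -0.39 (adjusted p = 0.0018, edgeR, standard error 0.105 in place of 0.161). LOXL1 had -1.97 and LOXL3 -1.45 without that library, while LOX had 1.82.

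Of the proteins that assemble on fibronectin fibrils, 14 were tested and 1 fell and 1 rose. LTBP2, a protein of the latent TGF-beta binding family that attaches to elastic microfibrils, fell from 88.4 ± 1.85 to 17.1 ± 2.70 CPM (SD, n = 3), with a log2 fold change of -2.37 (adjusted p = 9.4e-07, edgeR, standard error 0.136). LTBP1, which holds latent TGF-beta in the matrix, was called higher at mean levels of 0.419 CPM with siNC and 1.12 CPM with siE7. Its log2 fold change was 1.40 (adjusted p = 0.020, edgeR), and 1.26 without siE7 replicate 1. LTBP1 was called in 7 of the 12 alternatives in which it was tested. It was not called with DESeq2, without any 1 siNC library or without siE7 replicate 3. MFAP2, a microfibril protein, had a log2 fold change of -0.71 and was not called.

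In the list of other matricellular proteins, 12 genes were tested, of which 2 rose and 3 fell, with a median log2 fold change of 0.36. CCN1, an early response protein that binds integrins, fell from 90.1 ± 3.95 to 41.6 ± 4.03 CPM (SD, n = 3), with a log2 fold change of -1.12 (adjusted p = 4.8e-05, edgeR, standard error 0.117). SPOCK1, a proteoglycan of the SPARC family, fell from 19.1 ± 2.47 to 8.05 ± 0.798 CPM (SD, n = 3), a log2 fold change of -1.25 (adjusted p = 2.1e-04, edgeR). THBS2 (log2 fold change -1.10) and SPOCK2 (1.44) were called at mean levels of at most 1.50 CPM, and 31.2% of the exons of THBS2 overlap an antisense gene. THBS2 was called in 10 of 13 alternatives, and SPOCK2 in 5 of 12. CCN6, the other called gene that was higher (log2 fold change 1.03, adjusted p = 0.037, edgeR), stood at 1.09 CPM with siNC and 2.22 CPM with siE7, was called in 7 alternatives and is named after its values were seen. THBS3, another thrombospondin, had a log2 fold change of 0.37 (adjusted p = 0.13, edgeR). With library totals CCN1 was not called (-0.95).

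Of the other laminin chains and basement membrane partners, 7 were tested and 2 fell. LAMA3, which encodes the alpha chain of laminin-332, fell from 2888 ± 166 to 777 ± 60.0 CPM (SD, n = 3; log2 fold change -1.89, adjusted p = 9.4e-07, edgeR). LAMB3, its beta chain, had a log2 fold change of -0.94 and was not called. AGRN, the heparan sulfate proteoglycan agrin, had -0.93 (adjusted p = 4.0e-04, edgeR). LAMB2, named here after its values were seen, is the beta chain that can take the place of LAMB1 in laminin trimers. It was 41.9 ± 0.535 CPM with siNC and 58.2 ± 11.1 CPM with siE7 (SD, n = 3), a log2 fold change of 0.47 (adjusted p = 0.023, edgeR, between 0.0034 and 0.096 over its alternatives), and of 0.25 without siE7 replicate 1. LAMB3 (-1.18) and AGRN (-1.14) were called without that library.

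Among 16 tested receptors of fibronectin, thrombospondin, tenascin and laminin, 5 fell and none rose by both thresholds, with a median log2 fold change of -0.69. ITGA3 and ITGA6, alpha chains of laminin receptors, had log2 fold changes of -1.61 (standard error 0.137, adjusted p = 1.2e-05, edgeR) and -1.70 (standard error 0.137, adjusted p = 8.3e-06, edgeR). BCAM, which binds laminin alpha 5, fell from 216 ± 18.3 to 85.8 ± 30.8 CPM (SD, n = 3; log2 fold change -1.33, adjusted p = 6.0e-04, edgeR). Without siE7 replicate 1 the log2 fold change of BCAM was -1.72, that of ITGA3 -1.84 and that of ITGA6 -1.62. ITGB3 (log2 fold change -1.71, and -1.61 without that library) was called at 1.73 CPM with siNC and 0.530 CPM with siE7. Its exons share 33.2% of their length with a protein-coding gene on the same strand, which is not among the counted genes. ITGB5 (-1.19), a relative of ITGB3 and named after its values were seen, was called at 162 and 71.3 CPM. ITGB4 (-0.75) and SDC1, the cell surface proteoglycan syndecan 1 (-0.66), were not called, and ITGB4 (-1.04) was called without siE7 replicate 1. The chains of the main fibronectin receptor, ITGA5 and ITGB1, were named after their values were seen. ITGA5 had -0.72 (adjusted p = 0.0028, edgeR) and ITGB1 -0.59 (adjusted p = 0.023, edgeR, between 1.8e-08 and 0.13 over its alternatives), and neither was called. Without siE7 replicate 1, ITGA5 had -0.96 and ITGB1 -0.44. SDC4, a fibronectin co-receptor named in the same way, was the receptor with the highest log2 fold change, 0.47 (adjusted p = 0.0061, edgeR, between 1.4e-06 and 0.052 over its alternatives).

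In the TGF-beta list, whose ligands induce several of the 10 genes in many cells, 11 genes were tested and 1 was called. TGFBR2, the type II receptor, fell from 61.8 ± 1.79 to 27.5 ± 1.93 CPM (SD, n = 3), with a log2 fold change of -1.17 (adjusted p = 3.3e-05, edgeR, standard error 0.116), and with library totals it was just short of the threshold (-0.996). TGFB1, a ligand of the pathway, had a log2 fold change of -0.14 (adjusted p = 0.46, edgeR, standard error 0.141). It was -0.38 (adjusted p = 8.4e-07, edgeR, standard error 0.0594) without siE7 replicate 1 and 0.02 after scaling by library totals. That library was left out after its values were seen, and the lower p-value rests in part on the smaller standard error. The median of this list was 0.18, beside 0.08 for all tested genes.

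**Figure D4:**
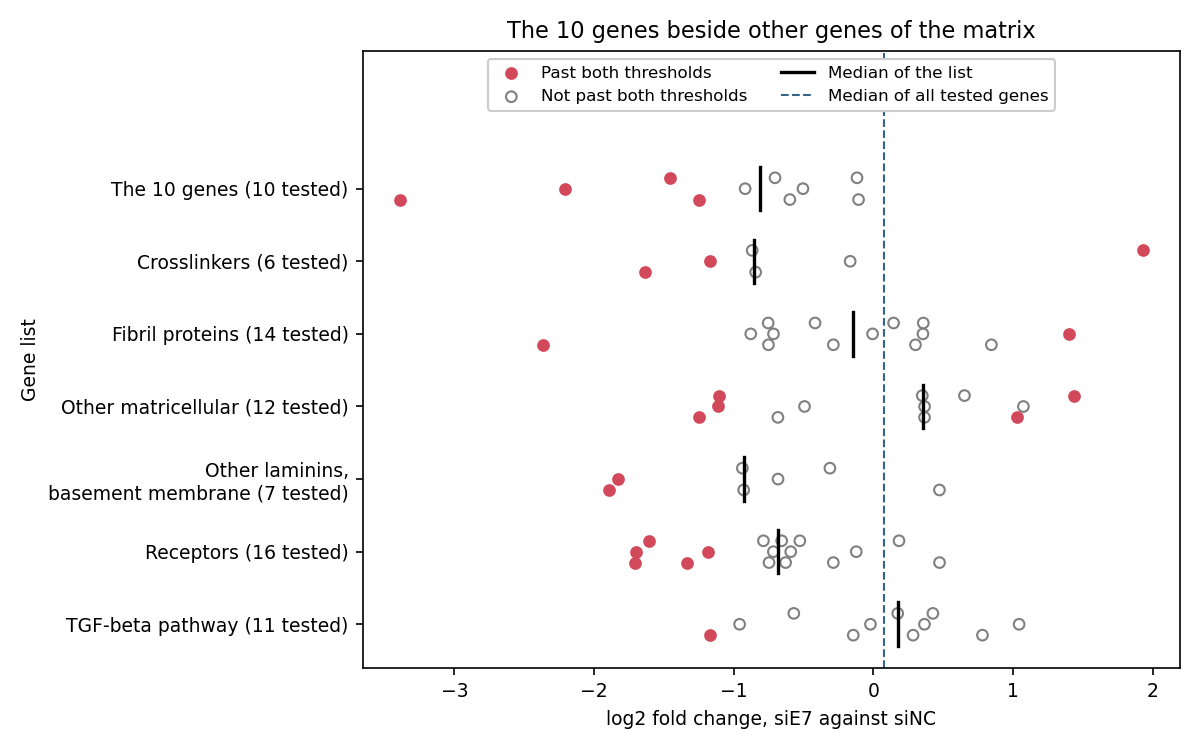
Log2 fold change between siE7 and siNC for the 10 genes and for the tested genes of 6 lists of other matrix, receptor and TGF-beta genes, with red points for genes past both thresholds, open points for the others, a black bar at the median of each list and a dashed line at the median of all tested genes (0.08). The lowest point is TGM2 at -3.39, and the highest is LOX at 1.93.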

How the data were processed

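Stranded mRNA libraries of SCC-9 cells were sequenced by the authors as paired-end reads on an Illumina NovaSeq. The submitters' processing notes name HISAT2, DESeq2 and GRCh38, and the counting tool, the annotation release and whether counting used the strand are not given in the sources used here. The deposited values are whole-number counts of reads per gene, not normalized by the authors, and genes with no read in any library are absent. From these counts, edgeR 4.0.16 (R 4.3.3) was used with filterByExpr, TMM factors and the robust quasi-likelihood F-test, with Benjamini-Hochberg adjustment over 14661 genes. Both thresholds that the study used were needed for a call (adjusted p-value 0.05, absolute log2 fold change 1). Standard errors and 95% intervals come from the same fit.

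Alternatives were DESeq2 1.42.0, limma-voom (limma 3.58.1), RLE scaling, library totals, no filter, at least 10 counts in every library, a replicate block and leaving out any 1 library. The scripts were tested on simulated data. The genes and lists were chosen with earlier results of these data known. Besides the 10 genes and MKI67, the text names from each list the 4 called genes with the largest change and the 2 most abundant others, and the text marks genes named otherwise. Some genes that the rule picks are not reported here. Positions and transcript lengths are from GENCODE v44 (GRCh38), to which 25269 of 25349 identifiers were matched without their version.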

Additional observations from a re-analysis of the deposited data

How the results depend on the processing

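The same 4 of the 10 genes were called under each of the 13 alternatives, except that leaving out siE7 replicate 1 added TNC, so leaving out 1 library gave 4 to 5. For all tested genes the count of 1792 became 1365 (at least 10 counts in every library) to 2219 (without siE7 replicate 1), and for the matrix lists 18 became 15 to 25. With library totals the median log2 fold change of all tested genes moved up by 0.169, and 76.2% of called genes were higher with siE7 in place of 60.4%. That share was 53.3% with DESeq2 and 55.0% with RLE scaling. Some uncalled genes near 0 changed sign. With library totals TGFBI was 0.0544, LAMA5 0.0457 and TGFB1 0.0159, each moved by the shift of the median. Leaving out 1 library gave -0.335 to 0.0011 for TGFBI, the positive value without siE7 replicate 3, and the cause was not tested. Libraries with the same replicate number showed no shared deviation (correlations of deviations -0.052 to -0.021). This does not settle whether they were handled together, which the labels do not say. The replicate block gave 4 of the 10 genes, 18 of the matrix lists and 1819 genes in all. Over 43 genes (the 10 genes, MKI67 and the matrix genes of the report, with FSTL1 and LTBP3) and their alternatives, 524 of 557 values kept their direction and their call by both thresholds, 24 lost a call and 5 gained one, the gains all without siE7 replicate 1 (TNC, LOXL2, LAMB3, AGRN and ITGB4). The adjusted p-value taken alone crossed 0.05 in 42 of the 557. At these depths each of the 10 genes had at least 450 counts in every library.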

Other observations

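For each of the 10 genes, the tested genes with the most similar profile over the 6 libraries were looked up, as the smallest root mean square difference of log2 CPM after centring each gene on its mean. The profiles are set mostly by the step between siE7 and siNC, so nothing about shared control is read from them. The nearest gene to FN1 was CNN2, an actin-binding calponin, at a difference of 0.023, with 137 CPM with siNC and 57.6 CPM with siE7, followed by KLK5, a skin serine protease, at 0.042. For TNC it was MMP14, a matrix metalloproteinase of the cell surface, at 0.036, with 1404 and 741 CPM. For THBS1 these were DKK3 at 0.080 (156 and 33.8 CPM) and the receptor tyrosine kinase AXL at 0.088 (418 and 94.8 CPM). The nearest gene to SPARC was SHROOM3, a regulator of apical constriction, at 0.038. FBLN1 was matched by PKP3, a desmosomal plaque protein, at 0.019, and by the proprotein convertase FURIN at 0.036. TGM2 had no such close match, with MYH16 at 0.171 and MMRN2 at 0.183 as the nearest.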
